A study of Mus musculus with 4 samples.

Results

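The genes described here are 10 transcription factors that respond to T cell receptor signals: the NFAT factors Nfatc1, Nfatc2, Nfatc3 and Nfat5, the NR4A nuclear receptors Nr4a1, Nr4a2 and Nr4a3, and the EGR zinc-finger factors Egr1, Egr2 and Egr3. They were chosen by gene symbol, with earlier results of these data known. All 10 were measured among the 50600 genes, 21764 of them protein-coding, of each deposited table. RNA-seq counts came from 4 libraries of T helper 17 (Th17) cells, the CD4 T cells that make IL-17A and IL-17F, differentiated in culture from CD4 T cells of C57BL/6NJ mice. The labels number them as biological replicates 1 to 4, with a single donor entry, age unknown and sex not collected, and name no genetic change, agent or dose. The headers of the tables name a sample at 24 hours, a time the labels do not give, and no unstimulated or undifferentiated cells were part of the series, so every value below is a level in 1 group and not a response. Nothing in the labels says whether the 4 libraries came from separate animals, so p-values apply to these libraries only and not to animals.

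NFAT proteins wait in the cytoplasm in a phosphorylated form. A rise in calcium activates the phosphatase calcineurin, which strips the phosphates and lets NFAT enter the nucleus, where it binds DNA often together with AP-1. Nfat5 is the exception in the family: it lacks the calcineurin docking region and is known for the response to hypertonic stress. NR4A receptors are orphan nuclear receptors made as immediate early genes, so that their amount sets their activity, and EGR factors are immediate early zinc-finger proteins induced through the MAP kinase pathway. In T cells, Nr4a1 is widely used as a reporter of antigen receptor signalling, and Egr2 and Egr3 are known as restraints on activation.

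The promoters of the NR4A genes and of Egr2 are shown first because they carry repeated short motifs of the factors known to drive immediate early genes. Sequences are from RefSeq (GRCm38.p6), and the table of start windows used here matched 7 of the 10 members: Nfatc2, Nfatc3, Nfat5, Nr4a1, Nr4a2, Nr4a3 and Egr2. Each stretch lies within the 250 bases before a RefSeq start site, is written 5′ to 3′ on the gene's own strand and holds no annotated exon base, for which the stretch of Nr4a3 was shortened. The Egr2 stretch lies inside the annotated gene, between exons of its transcript with the earliest start. Capitals mark the letters TGACG or its reverse complement, the core of the cyclic AMP response element bound by CREB and ATF proteins, as well as the EGR motif GCGNGGGCG, the MEF2 motif and the CArG box bound by SRF. The stretch for Nr4a1 is chr15:101266596-101266845 on the plus strand, for Nr4a2 chr2:57124004-57124253 on the minus strand, for Nr4a3 chr4:48045055-48045152 on the plus strand and for Egr2, before the third of its 5 listed starts, chr10:67537619-67537868 on the plus strand.
Nr4a1: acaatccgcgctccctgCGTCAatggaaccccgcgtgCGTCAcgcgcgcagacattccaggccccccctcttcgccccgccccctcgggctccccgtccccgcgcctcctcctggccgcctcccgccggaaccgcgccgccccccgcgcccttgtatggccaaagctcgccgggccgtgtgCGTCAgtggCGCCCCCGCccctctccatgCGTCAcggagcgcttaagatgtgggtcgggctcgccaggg
Nr4a2: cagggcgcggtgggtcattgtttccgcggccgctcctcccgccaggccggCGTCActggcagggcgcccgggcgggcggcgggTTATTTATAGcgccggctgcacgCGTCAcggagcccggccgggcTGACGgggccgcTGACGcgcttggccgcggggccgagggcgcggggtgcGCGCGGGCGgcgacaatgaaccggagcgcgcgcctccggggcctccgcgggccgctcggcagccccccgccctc
Nr4a3: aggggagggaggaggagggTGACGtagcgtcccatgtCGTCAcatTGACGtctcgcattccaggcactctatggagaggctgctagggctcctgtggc
Egr2: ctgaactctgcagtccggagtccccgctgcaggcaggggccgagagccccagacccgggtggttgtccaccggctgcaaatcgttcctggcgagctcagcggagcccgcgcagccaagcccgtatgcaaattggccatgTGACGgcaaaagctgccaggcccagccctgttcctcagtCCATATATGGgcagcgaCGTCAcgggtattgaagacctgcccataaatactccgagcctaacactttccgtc

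Each of the 3 NR4A windows held 4 copies of TGACG, counted on both strands over the full 250 bases. The stretch printed for Nr4a3 holds 3 of its 4, since the other lies in the first annotated exon. Over all 32851 RefSeq windows of this length, 17.8% held at least 1 copy and 0.137% held 4 or more. The windows of Nr4a1, Nr4a2 and Nr4a3 were 74.4%, 80% and 63.6% G or C, against a median of 52.4% over all windows. The shares given here and below were not matched for this content, on which the number of matches of such letters depends. Among the other members with a window, Egr2 held 2 copies before the start shown and none before the first 2 of its starts, and Nfatc3 held 1 before 1 of its 2 starts. None was found for Nfatc2 or Nfat5. The EGR motif GCGNGGGCG, found in 4.70% of windows, was present once in Nr4a1, 60 bases before the start, and once in Nr4a2, 74 bases before it. The 10-letter match to the MEF2 motif, a motif present in 2.92% of windows, stood 167 bases before the start of Nr4a2, where it overlaps a match on the minus strand to TATAAA. The letters TATAAA were found in 12.4% of windows and, among members, also in Nfatc2. The CArG box marked for Egr2 stood 72 bases before the start shown. A different CArG box stood 72 bases before the second of its starts, and none was found before the first. A CArG box was found in 1.47% of windows, a share per window, whereas Egr2 has 5 windows. The NFAT core GGAAA was found in windows of 5 of the 7 members (all but Nr4a1 and Nr4a3), but 55.6% of all windows hold it. Neither the full element TGACGTCA (1.55% of windows), the AP-1 motif TGANTCA (6.75%) nor the NR4A motif AAAGGTCA (1.34%) was found in any member's window; TGACG is part of the first of these. These are matches of letters and no binding was measured in these libraries.

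The libraries held 41360302, 19332509, 34979616 and 48558772 counted read pairs in replicates 1 to 4, so replicate 2 is the shallowest. All 10 Th17 markers, Il17a, Il17f and Cd4 among them, were above 1 TPM by edgeR, as were 45.9% of protein-coding genes. The 7 myeloid markers summed to between 0.0574 and 0.326 TPM with Lyz2, Csf1r, S100a8 and S100a9 at 0, and the 5 B cell markers to between 0.189 and 1.06 TPM. Of the CD8 T and NK markers, Cd8b1 was at 14.4 ± 1.4 TPM (SD, n = 4), Prf1 at 1.19 ± 0.724 and Cd8a at 0.101 ± 0.0412 TPM, with Klrb1c, Ncr1 and Gzma at 0. The libraries split in sex-linked RNA: the Y-linked Ddx3y was at 77.8 and 58.9 TPM in replicates 1 and 2 and at 0.240 and 0.0925 TPM in replicates 3 and 4, while Xist was at 0.916 and 1.01 TPM against 154 and 152 TPM. RNA of male and female cells differs in this way. The cause of the spread between the libraries in other genes was not tested. Levels of replicates 1 and 2 did not overlap those of replicates 3 and 4 for 3 of the 10 members, Nr4a2, Egr1 and Nfat5, where 34.8% of 12849 genes averaging 10 or more counts had no such overlap. In bulk RNA, fewer cells of a type and less RNA per cell cannot be told apart.

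All 10 members were expressed. Each was called above 1 TPM (counts divided by the exon length of each gene and scaled to a fixed sum in each library) by edgeR's quasi-likelihood test with Benjamini-Hochberg adjustment, as were 45.9% of protein-coding genes. DESeq2's Wald test called the same 10. The lowest, Nr4a2, was called with an edgeR adjusted p of 7.26e-252. The size of this value depended on the method, so it does not measure the spread of Nr4a2 between the libraries alone. From the same libraries, DESeq2's Wald test gave an adjusted p of 7.65e-55 and limma on log2(TPM + 0.1) gave 2.18e-06. The edgeR test gave 4.27e-30 once genes averaging fewer than 10 counts were left out. The median member stood at 64.1 TPM, against 0.411 TPM for all protein-coding genes. The members were chosen with earlier results known, so neither this nor the count above 1 TPM is independent of these levels. Nfatc4 and Egr4, the family genes left out, were not called above 1 TPM with all 4 libraries. The highest member, Nr4a1, lay 16.8-fold above Nr4a2.

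In falling order of mean TPM the members ran Nr4a1, Egr2, Egr1, Nfatc1, Nfatc3, Egr3, Nfat5, Nr4a3, Nfatc2, Nr4a2. Neighbours in this order kept apart over the 4 libraries in 7 of 9 cases. The 2 that overlapped were Egr1 with Nfatc1, where the lowest Egr1 library had 94.0 TPM and the highest Nfatc1 library 94.4 TPM, and Nfatc3 with Egr3, where the values were 64.6 and 72.0 TPM. These pairs could not be ordered beyond their spread.

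**Figure D1:**
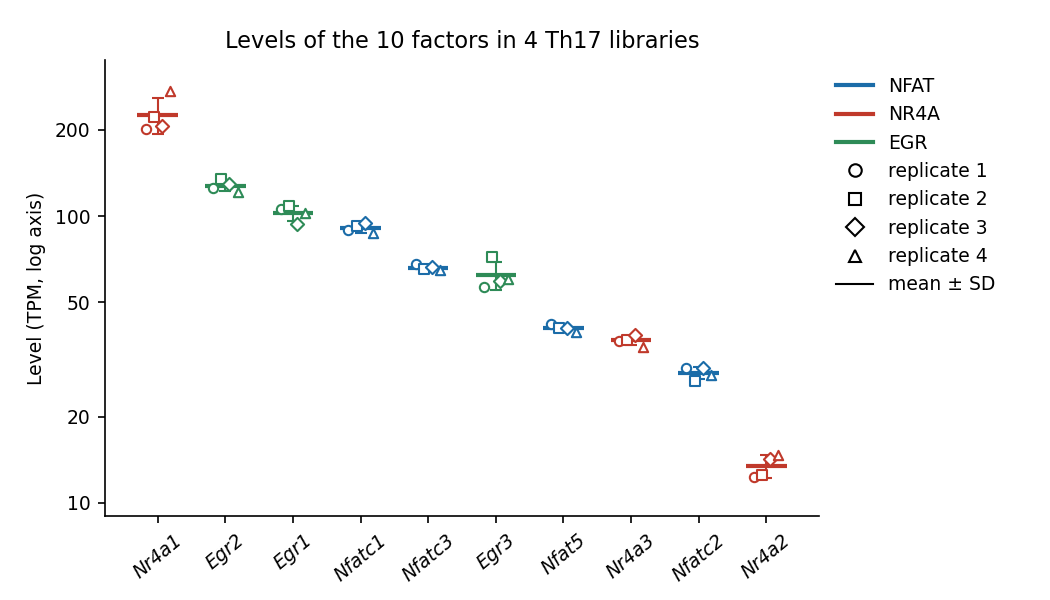
TPM on a log axis for each of the 10 members, with 1 symbol per library, a bar at the mean and error bars of ±1 SD over the 4 libraries. The points of Nr4a1 run from 201 to 273 TPM with replicate 4 on top, while the 4 points of Nfat5 and of Nfatc3 nearly coincide.

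Among the calcium-regulated NFAT genes, Nfatc1 was the most abundant. Nfatc1, which encodes NFAT2 (also named NFATc1) and is known to raise its own transcription through an inducible promoter, is located on chromosome 18 from 80606205 to 80713071 on the minus strand (mm10). Its level was 89.4, 92.2, 94.4 and 87.0 TPM in replicates 1 to 4, or 90.7 ± 3.26 (SD, n = 4), and the highest and lowest libraries differed by 1.09-fold. Nfatc3, on chromosome 8 from 106058840 to 106130537, had 67.9, 65.3, 66.4 and 64.6 TPM, the tightest of the 10 with a coefficient of variation of 2.19%. Nfatc2, which encodes NFAT1, the form found in resting T cells, is located on chromosome 2 from 168476410 to 168601657 on the minus strand and had 29.5, 26.7, 29.6 and 28.0 TPM. Nfatc1 was above Nfatc3 and Nfatc3 above Nfatc2 in each of the 4 libraries, with no overlap between them.

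Nfat5, the tonicity factor, is located on chromosome 8 from 107293470 to 107379517. Its level was 42.0, 40.7, 40.7 and 39.6 TPM, between those of Nfatc3 and Nfatc2, and its coefficient of variation was 2.46%. Both Nfat5 and Nfatc3 varied little even for their level: 14.4% and 13.2%, respectively, of the genes within 1.25-fold of their mean had a lower coefficient of variation. Those genes were matched on TPM and not on length. Nfat5 and Nfatc3 have 18378 and 11726 exon bases, against a median of 3281.5 for protein-coding genes. At a given TPM a longer gene has more counts, and counting error was only 1.18% and 1.16% for these 2. The 4 NFAT genes together made 226 ± 5.24 TPM (SD, n = 4), of which Nfatc1 gave 40.1%, Nfatc3 29.2%, Nfat5 18.0% and Nfatc2 12.6%. The NFAT gene outside the members, Nfatc4, was nearly absent, with 10 counts in all and 0.0409, 0.0430, 0 and 0.120 TPM. It was called below 1 TPM by edgeR (adjusted p = 3.73e-09), as were 51.7% of protein-coding genes, but not by DESeq2 (adjusted p = 0.0835).

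Differences between NFAT genes were computed library by library on the log2(TPM + 1) scale. Nfatc1 exceeded Nfatc2 by 1.64 ± 0.08 (SD, n = 4), Nfat5 by 1.14 ± 0.05 and Nfatc3 by 0.45 ± 0.05 on this scale. Nfatc3 exceeded Nfat5 by 0.68 ± 0.01 and Nfat5 exceeded Nfatc2 by 0.50 ± 0.06. All 6 differences pointed one way in 4 of 4 libraries, which gives a two-sided exact permutation p of 0.125 by flipping signs, the lowest value possible with 4 libraries, and an adjusted value of 0.134 over the 15 differences of this kind that were computed. None can pass a threshold of 0.05 in this design. The order of Nfatc1 against the longer genes depended on dividing by length: with log2(CPM + 1) and no length, Nfatc1 stood 0.20 below Nfatc3 (a difference of -0.20) and 0.15 below Nfat5 (-0.15).

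The NR4A family was dominated by 1 gene. Nr4a1, which encodes the orphan receptor Nur77, lies on chromosome 15 from 101266846 to 101274792 and had 201, 222, 206 and 273 TPM in replicates 1 to 4, with replicate 4 above the other libraries. Its mean of 225 ± 32.7 TPM (SD, n = 4) placed it at rank 802 of the protein-coding genes, at the 96.3rd percentile. Nr4a3, which encodes NOR1, lies on chromosome 4 from 48045153 to 48086447 and had 36.7, 37.1, 38.5 and 35.03 TPM. Nr4a2, which encodes Nurr1, lies on chromosome 2 from 57106830 to 57124003 on the minus strand and had 12.3, 12.5, 14.2 and 14.7 TPM. The order Nr4a1, Nr4a3, Nr4a2 held in 4 of 4 libraries without overlap.

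Nr4a1 supplied 81.6 ± 2.17% (SD, n = 4) of the NR4A transcripts, from 79.6% in replicate 3 to 84.6% in replicate 4, against 13.5% for Nr4a3 and 4.90% for Nr4a2. On the log2(TPM + 1) scale Nr4a1 exceeded Nr4a3 by 2.57 ± 0.25 and Nr4a2 by 3.96 ± 0.15, and Nr4a3 exceeded Nr4a2 by 1.39 ± 0.14 (SD, n = 4, exact sign-flip permutation p of 0.125 for each). The gap between Nr4a1 and Nr4a3 was widest in replicate 4, at 2.92, and narrowest in replicate 3, at 2.39. In replicate 4, Nr4a1 was at its highest and Nr4a3 at its lowest. The order of the 3 genes was the same without division by length, but the size of the gaps was not. With log2(CPM + 1), Nr4a1 exceeded Nr4a3 by 1.32 and Nr4a2 by 3.27, and Nr4a3 exceeded Nr4a2 by 1.95. The shares above are of TPM and rest on the lengths in the same way.

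Egr2 led the EGR family. Egr2, a factor known to hold back T cell activation through the co-repressors Nab1 and Nab2, lies on chromosome 10 from 67535475 to 67542188 and had 125, 135, 129 and 122 TPM, with a mean of 128 ± 5.52 (SD, n = 4). Egr1, the most studied immediate early factor of the family, lies on chromosome 18 from 34859823 to 34864984 and had 106, 108, 94.0 and 102 TPM, lowest in replicate 3. Egr3, which shares many functions with Egr2 in T cells, lies on chromosome 14 from 70077445 to 70080157 and had 56.5, 72.0, 59.3 and 60.4 TPM. Its high value came from replicate 2, the shallowest library, where it had 590 counts. The order Egr2, Egr1, Egr3 held in 4 of 4 libraries without overlap.

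The 3 EGR genes summed to 292 ± 15.1 TPM (SD, n = 4), with 43.7% from Egr2, 35.1% from Egr1 and 21.2% from Egr3. On the log2(TPM + 1) scale Egr2 exceeded Egr1 by 0.31 ± 0.10 and Egr3 by 1.03 ± 0.11, and Egr1 exceeded Egr3 by 0.72 ± 0.14 (SD, n = 4, exact sign-flip permutation p of 0.125 for each). Without division by length, Egr2 minus Egr1 was -0.08. Egr4, the family's gene outside the members, had 1.57 and 1.61 TPM in replicates 1 and 2 and 0.626 and 1.247 TPM in replicates 3 and 4, and edgeR placed it neither above nor below 1 TPM (adjusted p = 0.158). Without replicate 3, its lowest library, it was called above 1 TPM (edgeR adjusted p = 0.0309).

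**Figure D2:**
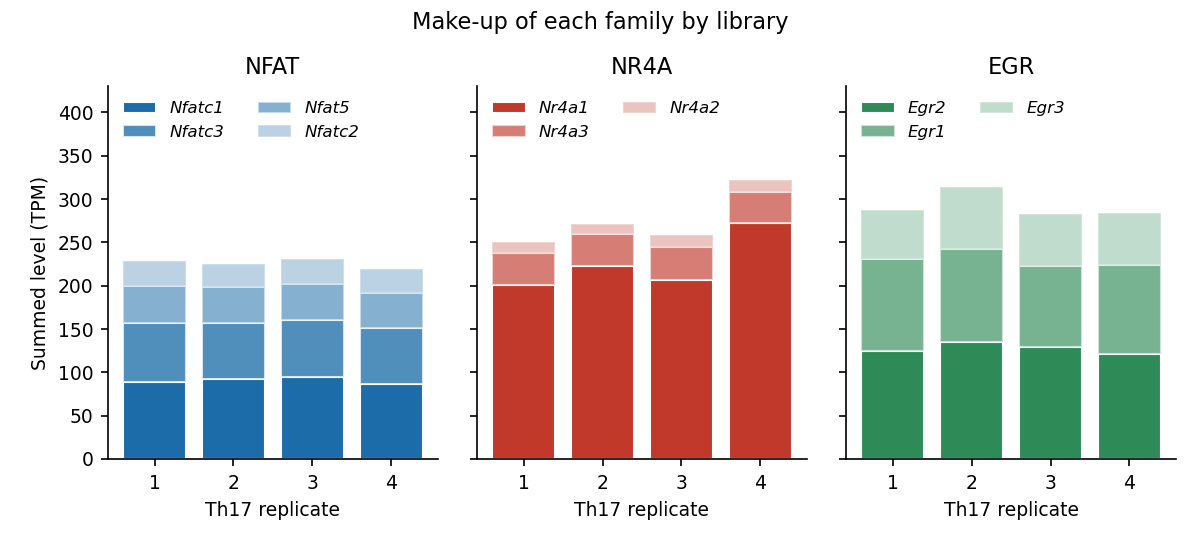
Stacked bars of the summed TPM of each family in replicates 1 to 4, with 1 shade per gene and the axis from 0. Nr4a1 fills most of each NR4A bar and accounts for the height of replicate 4, at 322 TPM in sum, whereas the NFAT bars stay between 219 and 231 TPM.

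The summed levels of the 3 families were close. EGR genes exceeded NFAT genes by 0.37 ± 0.08 and NR4A genes exceeded NFAT genes by 0.28 ± 0.19 on the log2(TPM + 1) scale (SD, n = 4), each in 4 of 4 libraries (exact sign-flip permutation p = 0.125). EGR and NR4A sums differed by 0.09 ± 0.18, with EGR higher in 3 of 4 libraries and NR4A higher in replicate 4 (exact permutation p = 0.375), which is within the spread. The order of NFAT against the other families rested on the lengths used. The merged exons of the NFAT genes, at 7433 to 18378 bases, are longer than any single coding transcript of those genes in GENCODE M21, which are 4797 to 13380 bases. With the longest coding transcript as length where it was shorter, a choice made after seeing the data, NR4A minus NFAT became -0.41 and EGR minus NFAT became -0.25.

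Under that length, Nfatc1 stood at 100.3 ± 3.62 TPM and Nfatc3 at 92.3 ± 2.01 TPM, both above Egr1 at 73.1 ± 4.37 TPM (SD, n = 4), and Nfatc2 at 31.4 ± 1.54 TPM was above Nr4a3 at 27.5 ± 1.07 TPM. Nr4a1 and Egr2 kept the first places and Nr4a2 the last, and the order of genes within each family was the same. For Egr3 the counted exons cover 1416 bases, while its longest M21 transcript has 3940, so its reads from the rest of that transcript were not counted and its level is that of the counted part.

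**Figure D3:**
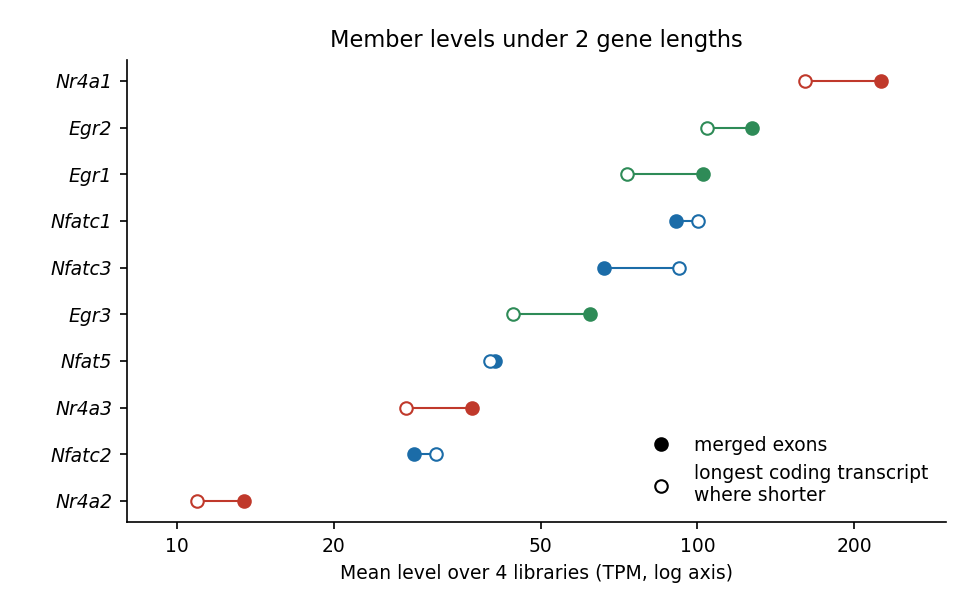
Mean TPM of each member on a log axis with merged exons as the gene length (filled) and with the longest coding transcript where it is shorter (open). The open points of Nfatc1 and Nfatc3, at 100.3 and 92.3 TPM, lie to the right of that of Egr1, at 73.1 TPM, in contrast to the filled points.

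Nr4a1 was the only member whose level varied between the libraries more than genes of its level do. The test compared each gene's counts with edgeR's trended dispersion, and called 47 of 12849 genes, or 0.366%. Nr4a1 ranked 17 by p (edgeR adjusted p = 7.55e-05), with a coefficient of variation of 14.5% against 1.39% from counting error and 4.05% from the trend. All 468 protein-coding genes within 1.25-fold of its mean had a lower coefficient of variation. The call rested on replicate 4: without it the adjusted p was 0.999964, and without replicate 3 it was 0.0516. It was also lost with 1 common dispersion for all genes (adjusted p = 0.0852). Within the sex-linked split, Nr4a1 was at 201 and 222 TPM in replicates 1 and 2 and at 206 and 273 TPM in replicates 3 and 4, so its levels overlapped across the split.

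The other 9 members had adjusted p-values of 0.999964 in this test. Egr3 had the next largest spread at 11%, with 97.2% of the 1138 genes near its level below it, but only 3684 counts over the 4 libraries, where counting error alone gives 3.42%. Egr1, at 6.01%, exceeded 87.5% of the genes near its level. Nr4a2 had 9.00%, above 75.6% of the genes near its level, with a mean of 12.4 TPM in replicates 1 and 2 and 14.5 TPM in replicates 3 and 4. Its libraries, like those of Egr1 and Nfat5, did not overlap across the sex-linked split, a share of members no larger than the 34.8% given above for genes in general.

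**Figure D4:**
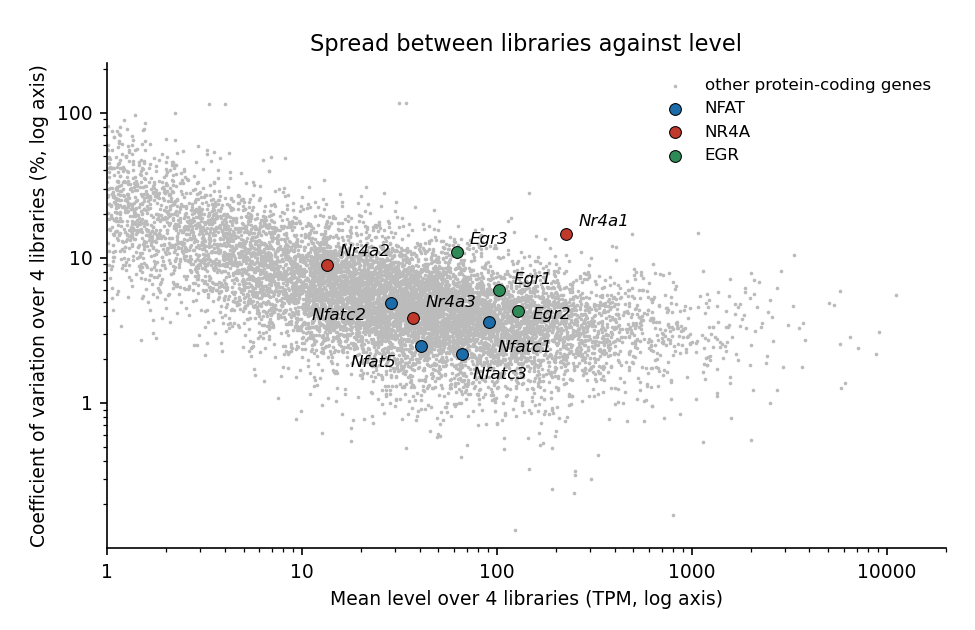
Coefficient of variation over the 4 libraries against mean TPM, both on log axes, for the protein-coding genes of at least 1 TPM (grey) and the 10 members (coloured). Nr4a1, at 225 TPM and 14.5%, lies above the grey points around it, and Nfat5 and Nfatc3 lie in the lower part of the cloud.

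The genes with levels most like the leading members over the 4 libraries, by root mean square difference in log2(TPM + 1), were found for 1 gene of each family. For Nfatc1 they were Rpe (0.03), Trip12 (0.04) and Ak6 (0.04), and for Egr2 they were Smarcd2 (0.02), Cox14 (0.03) and Gfer (0.03). The nearest to Nr4a1 were farther away: Marcksl1 and Ndufa6 at 0.11 and Rae1 at 0.13. Marcksl1 was also highest in replicate 4, with 265 TPM against 211 to 233 TPM in the other libraries, and Ndufa6 had 252 TPM there.

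RNA of the machinery that activates NFAT was present throughout. All 14 genes of calcium entry, calmodulin and calcineurin were above 1 TPM by edgeR and by DESeq2. For this list and those that follow, the shares over all protein-coding genes were 45.9% above and 51.7% below 1 TPM by edgeR. The lists, too, were chosen with earlier results of these data known. Among the highest were Calm2, at 517 ± 18.5 TPM, and Calm3, at 263 ± 6.77 TPM (SD, n = 4), which encode the calcium sensor calmodulin. Of the catalytic calcineurin subunits, Ppp3cb was at 48.98 ± 1.83 and Ppp3cc at 39.6 ± 4.53 TPM, whereas Ppp3ca, at 3.35 ± 0.211 TPM, was the lowest of the list. The channel Orai1, the pore of store-operated calcium entry, was at 87.5 ± 1.35 TPM.

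Of 16 kinases that rephosphorylate NFAT, inhibitors of calcineurin and immunophilins, 13 were above 1 TPM. Ppia (cyclophilin A) was at 752 ± 33.04 TPM and Fkbp1a (FKBP12) at 353 ± 5.09 TPM; these proteins are the receptors of cyclosporin A and tacrolimus, the drugs that block calcineurin. Gsk3a, a kinase that drives NFAT out of the nucleus, was at 172 ± 2.64 TPM. Rcan1, a calcineurin inhibitor and itself an NFAT target, was at 27.3 ± 0.617 TPM. The 3 called below 1 TPM by edgeR were Akap5, Homer2 and Rcan2. DESeq2 called neither of the first pair and gave no test for Rcan2, which had no count, where 3 counts over the 4 libraries would equal 0.0187 TPM.

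Among 15 cytokines and ligands known as NFAT targets, 11 were above 1 TPM by edgeR and 10 by DESeq2, which did not call Fasl (adjusted p = 0.397). Il2, the classical NFAT and AP-1 target, stood at 6137, 5701, 5310 and 5804 TPM, and was the highest of any listed gene. Cd40lg had 589 ± 7.76 TPM and Tnf 512 ± 12.97 TPM (SD, n = 4). The 4 called below 1 TPM by edgeR, Il4, Il5, Il13 and Ifng, are the cytokines of other T helper subsets, and DESeq2 called none of them. Il5, the lowest, had 3 counts, all in replicate 3. Il17f was the one gene of this list that varied (edgeR adjusted p = 0.0470), with 557, 391, 501 and 521 TPM, lowest in replicate 2.

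Of 9 tonicity genes linked to Nfat5, 7 were above 1 TPM by edgeR and 6 by DESeq2, which did not call S100a4 (adjusted p = 0.292). The list was led by the transporters Slc38a2 at 127 ± 1.78, Slc6a6 (taurine) at 125 ± 4.27 and the aldose reductase Akr1b3 at 30.6 ± 1.42 TPM (SD, n = 4). Slc6a12, the betaine transporter, had no count, where 3 counts over the libraries would equal 0.0229 TPM, and Aqp1 had 2 counts in all. DESeq2 also called Aqp1 below 1 TPM and gave no test for Slc6a12.

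Of 17 co-repressors and targets of EGR factors, 14 were above 1 TPM by edgeR and 13 by DESeq2, which again did not call Fasl. Nab2, the co-repressor that EGR factors themselves induce, was at 127 ± 5.62 TPM, a level close to that of Egr2, and Nab1 was at 53.8 ± 1.95 TPM. Socs1, at 157 ± 22.3 TPM, and Lag3, an inhibitory receptor, at 116 ± 8.74 TPM were also among the highest 3. Rnf128 (GRAIL), an E3 ligase of anergic T cells, was the lowest at 0.163 ± 0.139 TPM and was called below 1 TPM by edgeR with Nrgn and Nrp1.

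Of 13 NR4A partners and targets, 8 were above 1 TPM, 4 below and 1 on neither side. The inhibitory receptors Ctla4, at 596 ± 31.8 TPM, Pdcd1, at 314 ± 14.7 TPM, and Tigit, at 176 ± 23.7 TPM, led the list. Of the retinoid X receptors, with which Nr4a1 and Nr4a2 can pair, Rxra was at 70.1 ± 2.10 and Rxrb at 79.0 ± 4.57 TPM, and Rxrg had no count, where 3 counts would equal 0.0304 TPM. Havcr2, Entpd1 and Nt5e, genes of exhausted or regulatory T cells, were called below 1 TPM by edgeR together with Rxrg. DESeq2 called none of these 4 and gave no test for Rxrg. Tnfsf10 was on neither side, at 1.01 ± 0.206 TPM.

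RNA of factors known to bind motifs like those shown in the promoters was present, and their proteins were not measured. Of 12 genes for SRF, its ternary complex partners, MEF2 and CREB factors, 11 were above 1 TPM, led by Atf1 at 131 ± 3.80, Srf at 120 ± 7.07 and Mef2d at 59.6 ± 1.97 TPM (SD, n = 4). Mef2c was the exception, with 5 counts in all, and was called below 1 TPM by edgeR and DESeq2. Of 19 other immediate early genes, 18 were above 1 TPM by edgeR and 17 by DESeq2, which did not call Klf4, with Myc at 753 ± 26.1, Junb at 738 ± 33.2 and Dusp2 at 417 ± 27.3 TPM. Fosb, at 0.533 ± 0.121 TPM, was called below 1 TPM by edgeR and not by DESeq2. Nr4a1 and Egr2 thus lay between the lowest and the highest immediate early genes, and no other gene of this list varied by the test that called Nr4a1.

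**Figure D5:**
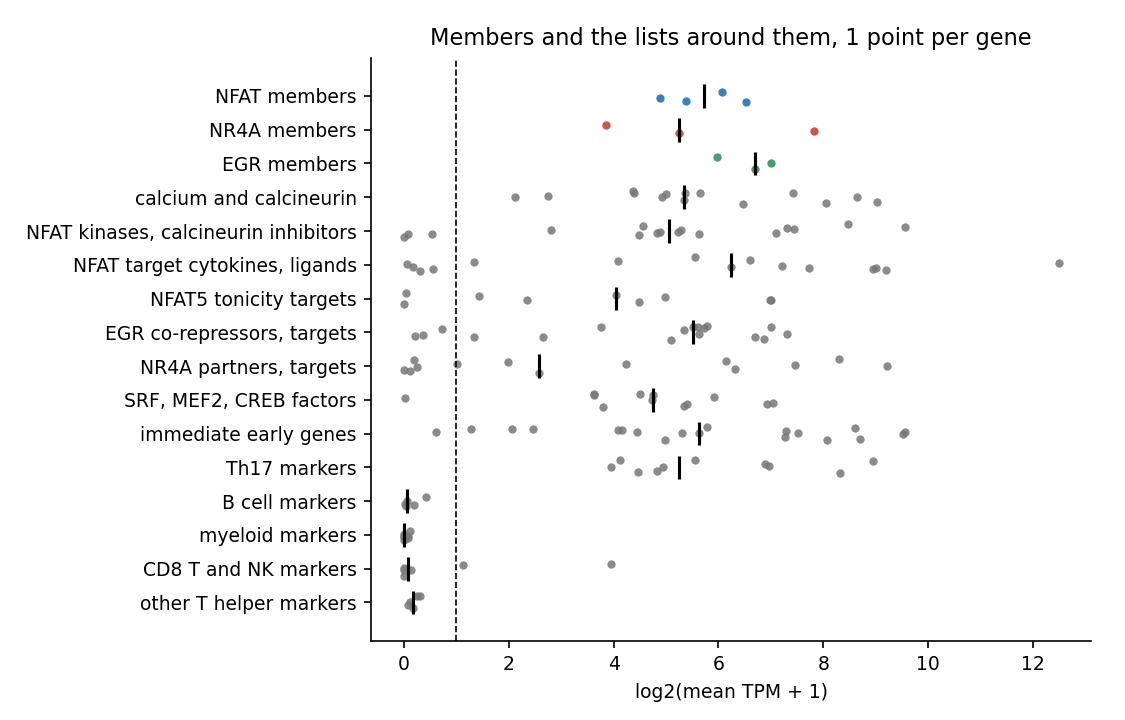
Mean level of each gene as log2(mean TPM + 1), with 1 row per list, a bar at the median of the list and a dashed line at 1 TPM. The members (coloured) and the calcium genes all lie to the right of the line, while the B cell, myeloid and other T helper markers lie to its left.

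Some features of the transcripts set the members apart from each other. The word ATTTA, the core of AU-rich elements that mark short-lived mRNAs, occurred at least once in the 3′ untranslated region of all 10 members, against 67.2% of 9883 protein-coding genes of at least 1 TPM. A longer region has more room for a match, and this share was not matched for length. All members but Nr4a1 had regions of 1200 to 8365 bases, against a median of 845 bases over 19957 protein-coding genes. Per kilobase, Nr4a1 had the most, at 5.52 (3 words in 543 bases), followed by Nfat5 at 3.11 (26 words in 8365 bases), Egr3 at 2.65 and Egr2 at 2.50. Nfatc2 had the fewest, at 0.264 per kilobase, and the median of the expressed genes was 1.29. Nfatc1, at 1.13, and Nfatc3, at 1.20, also lay below that median, and all other members lay above it. These counts describe the annotation, and RNA decay was not measured.

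Gene size also differed by family. The NFAT genes span 71698 to 125248 bases and the EGR genes 2713 to 6714 bases, against a median of 17206 bases for protein-coding genes. The NR4A genes lay between these ranges, with 7947 bases for Nr4a1, 17174 for Nr4a2 and 41295 for Nr4a3. No member shares exon bases with another gene on the same strand in the deposited annotation. At most 0.549% of the 50-base words of a member, in Nfat5, occur in transcripts of other genes and 219 exon bases of Nfatc3 face the gene Esrp2 on the opposite strand, whose reads the stranded counting keeps apart.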

How the data were processed

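RNA was measured in 4 Th17 libraries of 1 group. The authors deposited raw counts: featureCounts (version 1.4.6-p4, per the file headers) assigned read pairs with both ends mapped to genes of GENCODE M13 on mm10, by reverse strand. The version of the aligner was not given in the sources used here. By the labels this is total RNA-seq, although the linked protocol is named for poly(A) RNA. Other deposited columns give merged exon lengths.

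TPM was computed here from counts and lengths over all 50600 genes. Symbols came from GENCODE M21, which matched 99.6% of identifiers. Of the listed symbols, Mkl1, Mkl2 and Cyr61 were matched through RefSeq synonyms. The members and lists were chosen with earlier results of these data known. Levels of 21764 protein-coding genes were tested against 1 TPM with edgeR 4.0.16 (R 4.3.3; quasi-likelihood F test of the intercept, two-sided). Variation was tested, one-sided, where a gene averaged 10 or more counts, as the deviance from a negative binomial with edgeR's trended dispersion and TMM normalization. Both used Benjamini-Hochberg adjustment over all genes tested and a threshold of 0.05. Differences between members used a two-sided exact sign-flip permutation test. The scripts were tested on simulated data. DESeq2 1.42.0, limma 3.58.1 and other settings were alternatives.

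The rule for names took all members, Nfatc4 and Egr4, the 3 highest and the lowest gene of each list by mean TPM, and the 3 nearest genes of each family's leading member. The value of 1 gene that the rule names is not reported here. Genes called below or on neither side of 1 TPM, and Orai1, Ppp3cb, Ppp3cc, Rcan1, Nab1, Fasl, S100a4, Klf4, Rxra, Rxrb and the markers at 0, were named after their values were seen. Total counts ran from 19332509 to 48558772. Read pairs without molecular identifiers are not independent molecules, so limits from 3 counts cover counting error only.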

Additional observations from a re-analysis of the deposited data

Results flagged for a closer look

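No member had a library that stood apart from the other 3 by Dixon's ratio at the 95% level. Among the other named genes 6 did, and chance alone gives such a gap in about 1 of 20 groups of 4. The highest library stood apart for Fosb (0.715 TPM, replicate 4), Prf1 (2.27 TPM, replicate 2), Cd14 (0.220 TPM, replicate 2), Il5 (0.188 TPM, replicate 3) and Ms4a1 (0.0311 TPM, replicate 3), the last 3 with 2 or 3 counts in all. Ppia was lowest in replicate 1, at 703 TPM.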

How the results depend on the processing

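No paired analysis was possible because the series has 1 group. All 10 members stayed above 1 TPM under every alternative tried: DESeq2, limma, a count filter, protein-coding TPM, levels of 0.5 and 2 TPM, and leaving out each library. Of genes below 1 TPM, 11248 by edgeR, 1184 were called by DESeq2 and 770 with a mean of at least 10 counts. DESeq2 called below 1 TPM 0 of the other family genes, kinases and inhibitors, NFAT targets, EGR genes, NR4A genes, immediate early genes, myeloid, CD8 and NK, and other T helper markers, 1 tonicity gene and 3 B cell markers. With 1 common dispersion 356 genes and 0 members varied (Nr4a1 adjusted p = 0.0852, edgeR). Leaving out each library gave 22 to 39 varying genes, 0 to 1 varying members and Nr4a1 adjusted p-values from 6.14e-06 to 0.999964. With log2(CPM + 1) and no length, Nfatc1 minus Nfatc3 was -0.20, Nfatc1 minus Nfat5 -0.15, Egr2 minus Egr1 -0.083, NR4A minus NFAT -1.59 and EGR minus NFAT -1.35. With the longest coding transcript as length, added after seeing the data, NR4A minus NFAT was -0.41, EGR minus NFAT -0.25, and 5 of 10 members kept their place in the order. These reversals come with the change of length itself, since counts were the same. Pseudocounts, protein-coding TPM and left-out libraries turned no difference between members or families. The 2 tools differed for Nfatc4, with 10 counts in all (called below 1 TPM by edgeR, not by DESeq2). The cause was not tested.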
